A study of Mus musculus with 4 samples.

Results

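The proximal 33 Mb of mouse chromosome 15 were examined in 4 liver tumours by array comparative genomic hybridization. The region was taken as every placed, non-control probe position of chromosome 15 that starts below 33 Mb on the mouse build mm9. This gave 1780 of the 6572 positions on chromosome 15 and of 169093 placed positions on the array. The positions ran from 3091692 to 32987380, with a median spacing of 11718 bp and a largest gap of 140523 bp. Of these, 1095 carried a gene name and 685 did not. Membership was set by position alone, but the region was chosen with earlier results of these data known.

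The tumours came from 4 C57BL/6J mice that had lost Trp53, which encodes the tumour suppressor p53, in the liver and received no treatment. The genotype is given as Trp53-/- and the sex as male for tumour and reference alike. The ages of the mice and the driver of the liver-specific loss were not given in the sources used here. Tumour DNA carried Cy5 on all 4 arrays, and the reference, DNA from the spleens of 3 sex-matched littermates in 1 pool, carried Cy3. The labelling protocol names liver in place of spleen for the reference. All tumours form 1 group, numbered 1 to 4, so each value is the log2 of tumour signal over reference signal and the question is whether it lies above or below 0, the autosomal median. Nothing in the labels places tumour content or purity, and in DNA from whole tissue a change in some of the cells and a smaller change in all of them cannot be told apart.

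Array comparative genomic hybridization lets tumour and reference DNA compete for the same oligonucleotides, so that an extra chromosome copy raises the ratio of every probe along it. Whole chromosomes or long segments are often gained in liver tumours, and such a gain carries every gene of the segment with it. The proximal part of mouse chromosome 15 corresponds in large part to the short arm of human chromosome 5. It holds Skp2, whose protein is the substrate-binding subunit of a ubiquitin ligase that marks the cell-cycle inhibitor p27 for destruction. It also holds Ctnnd2, which encodes delta-catenin, a partner of cadherins, and the receptors for growth hormone, prolactin, interleukin 7, oncostatin M and leukaemia inhibitory factor.

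Each measurement is the signal of an oligonucleotide of up to 60 bases, and 10 of the 1780 are shown because gene values below rest on them. They are all 5 probes of Skp2, the lone probes of Ptger4, Rad1 and Cct5, and the Ctnnd2 probes with the highest and the lowest mean over the tumours. The first base is the 5′ end as the array files give it, positions are on mm9, and the files do not name the strand. Capitals mark the longest run of A and T in each probe, or the first where several are equally long, since values in tumour 2 varied with base composition.
Skp2 probe 1, chr15:9043131-9043190: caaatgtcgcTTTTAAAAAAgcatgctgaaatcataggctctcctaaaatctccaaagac
Skp2 probe 2, chr15:9046848-9046895: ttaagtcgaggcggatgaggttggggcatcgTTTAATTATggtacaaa
Skp2 probe 3, chr15:9053680-9053730: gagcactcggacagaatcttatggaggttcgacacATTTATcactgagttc
Skp2 probe 4, chr15:9061778-9061837: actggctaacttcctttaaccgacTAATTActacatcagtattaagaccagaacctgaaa
Skp2 probe 5, chr15:9069139-9069198: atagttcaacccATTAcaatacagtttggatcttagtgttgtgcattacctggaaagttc
Ptger4 probe, chr15:5188074-5188133: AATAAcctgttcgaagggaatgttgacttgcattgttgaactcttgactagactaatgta
Rad1 probe, chr15:10417746-10417805: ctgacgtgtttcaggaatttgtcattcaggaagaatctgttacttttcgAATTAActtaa
Cct5 probe, chr15:31529935-31529993: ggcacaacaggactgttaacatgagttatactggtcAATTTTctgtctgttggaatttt
highest Ctnnd2 probe, chr15:30627846-30627905: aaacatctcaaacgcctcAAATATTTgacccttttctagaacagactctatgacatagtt
lowest Ctnnd2 probe, chr15:30335655-30335714: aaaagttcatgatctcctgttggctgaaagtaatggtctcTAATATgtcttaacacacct
The capital run was 10 bases in Skp2 probe 1 and 4 bases in Skp2 probe 5. G and C made up 36.7%, 43.8%, 45.1%, 36.7% and 36.7% of Skp2 probes 1 to 5, and 33.3% of the Rad1 probe. Across the region the mean was 36.4%, against 36.9% in the rest of the chromosome and 36.5% on the other autosomes.

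Before any result, the X and Y chromosomes set 2 arrays apart. In the tumour channel of arrays 1 to 3 and the reference channel of arrays 2 to 4, X lay between -0.99 and -0.89 and Y between -1.16 and -0.75 (log2, against the autosomal median of that channel). The reference channel of array 1 read -0.07 on X and -3.38 on Y, and the tumour channel of array 4 read -0.08 on X and -3.11 on Y. These 2 channels go against the male label. Arrays 1 and 4 correlated at r = -0.61 over all placed positions, at 0.18 over autosomal ones and at 0.12 over autosomal ones outside chromosome 15. Over this last set array 1 correlated at 0.10 with array 2 and at 0.17 with array 3. Arrays 2 and 3 gave 0.48 there, arrays 2 and 4 gave 0.44, and arrays 3 and 4 gave 0.33. The direction was kept because the labels state the dyes, and whether DNA was swapped or mixed up in these 2 channels was not settled here. Results are also given for tumours 2 and 3 alone. The spread between neighbouring probes had an SD of 0.12, 0.37, 0.15 and 0.15 (log2) in tumours 1 to 4. Nearly every spot of the region was well above background, with 98.9% in tumour 2 as the lowest share.

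The whole region lay above 0 in every tumour. Its mean was 0.21, 0.25, 0.14 and 0.26 in tumours 1 to 4. Tumour 3 was lowest. Tumour 4 was highest, but tumour 2 was with medians over positions (0.27 against 0.26) and tumour 1 by a small margin with normexp. With its sign turned tumour 1 would read -0.21 and tumour 4 -0.26. No tumour reached 0.58, the value that 3 copies against 2 in every cell would give before any loss of signal range. The mean over tumours was 0.21 ± 0.05 (SD, n = 4), a ratio of 1.16. It was above 0 in 4 of 4 tumours (exact two-sided sign-flip test over 16 sign patterns, p = 0.13, the smallest that 4 tumours allow, so no such test can pass 0.05). With tumours 2 and 3 alone the mean was 0.19. With normexp the mean was 0.27, and tumour 1 read 0.32. Normexp corrects the background of the raw signal, and here the removal of spatial trends and the dye balancing were left out with it. The other autosomes averaged between -0.03 and -0.01 in the 4 tumours.

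Single positions showed the same shift. In tumours 1 and 4, 96.5% and 94.6% of the region's positions lay above 0, and in tumours 2 and 3 the share was 76.7% and 83.0%. With the sign turned, the shares of tumours 1 and 4 would be 3.54% and 5.39%. Over the autosomes outside chromosome 15 the share was 48.0%, 48.8%, 48.6% and 48.2% in tumours 1 to 4. Alternate positions gave means within 0.01 of each other. The odd positions averaged 0.21, 0.24, 0.14 and 0.26 and the even positions 0.21, 0.25, 0.13 and 0.26. Positions with and without a gene name differed by 0.01, -0.02, 0.0017 and 0.00082 (log2, named minus unnamed; exact sign-flip p = 1). The widest of these differences, in tumour 2, favoured the unnamed positions.

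In 3 Mb bins the shift ran through the region without a break. All 10 bins were higher than 0 over the 4 tumours (limma across 809 autosomal bins, Benjamini-Hochberg adjusted p = 0.00054 to 0.00069), against 4.2% of all autosomal bins. Every one of the 34 bins called higher lay on chromosome 15, which has 34 bins, so the call is shared with the rest of the chromosome. Bin means over tumours ran from 0.19 (21 to 24 Mb) to 0.24 (12 to 15 Mb), with standard errors of 0.02 to 0.03. The bins share the same 4 tumours and one stretch of DNA, so the 10 calls are not 10 independent results. All 10 bins were also called from tumours 2 and 3 alone. That fit of 2 arrays leans on the spread pooled over all bins, and its share of all autosomal bins called is not given. In it the bin means ran from 0.15 (21 to 24 Mb) to 0.24 (12 to 15 Mb). With the sign of tumour 1 or of tumour 4 turned, 0 of 10 were called.

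**Figure D1:**
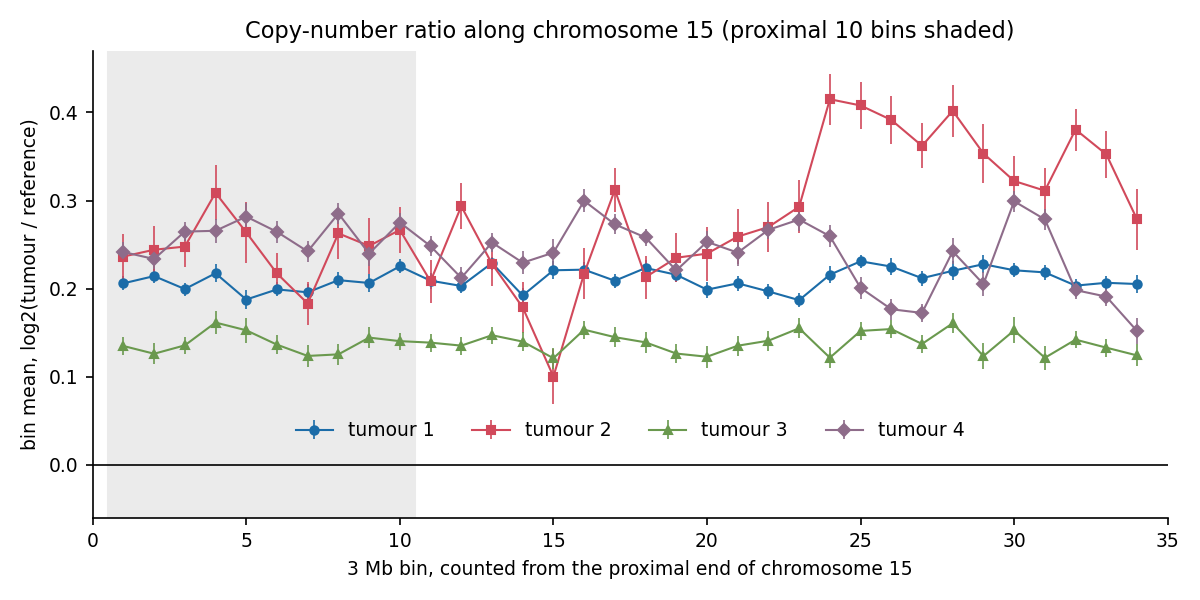
Mean log2 ratio of tumour over reference (vertical axis) in each 3 Mb bin of chromosome 15 (horizontal axis, numbered from the proximal end), 1 line per tumour, with bars showing the standard error over probe positions. The proximal 10 bins are shaded, and in them tumour 1 stayed between 0.19 and 0.23 and tumour 3 between 0.12 and 0.16.

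Within the region the tumours differed in level (SD 0.05) more than the bins did within any 1 tumour (SD 0.01 to 0.03). Tumour 1 ran from 0.19 (15 to 18 Mb) to 0.23 (30 to 33 Mb), with an SD over bins of 0.01. Tumour 3 ran from 0.12 (21 to 24 Mb) to 0.16 (12 to 15 Mb), with an SD of 0.01. These ranges did not overlap, so tumour 3 lay below tumour 1 in every bin.

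Tumour 4 ran from 0.23 (6 to 9 Mb) to 0.29 (24 to 27 Mb), with an SD over bins of 0.02, and lay above tumour 1 in every bin. Tumour 2 had the widest range, from 0.18 (21 to 24 Mb) to 0.31 (12 to 15 Mb), with an SD of 0.03. Its standard errors over positions within a bin were 0.02 to 0.03, also the widest. Over the 10 bins its value followed mean probe G and C content with r = 0.83, against 0.49, 0.46 and 0.64 in tumours 1, 3 and 4. These correlations describe 10 bins of the same array and carry no test. In tumours 1 and 3 no bin of another autosome, of 775, reached the lowest proximal bin of that tumour. In tumour 2, 2 of those 775 bins did, and in tumour 4, 1 did.

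At a level of 0.2 or more the tumours split. The count was 6 of 10 bins in tumour 1, against 3.21% of all autosomal bins, and 9 of 10 in tumour 2, against 4.08%. In tumour 4 it was 10 of 10, against 3.71%. In tumour 3 it was 0 of 10, against 0.0%. The rest of chromosome 15 had 20 of 24 such bins in tumour 1 and 22 of 24 in tumour 2. There it had 0 of 24 in tumour 3 and 19 of 24 in tumour 4, so this level too is shared with the rest of the chromosome. Of the 40 values of tumour and bin, 25 were at or above 0.2, 40 at or above 0.1 and 1 at or above 0.3. The bin from 15 to 18 Mb, with 95 positions and 3 gene names the sparsest, read 0.19, 0.26, 0.15 and 0.28.

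At the penalty used, no change of level was found inside the region in any tumour. Each profile was cut into segments by penalised least squares, and in each tumour 1 segment began at the first probe and ran past 33 Mb. With the penalty factor at 1.5 in place of 3, a single probe at 6293603 reading -0.65 split the segment of tumour 4, with 0.24 before it and 0.26 after it. Small steps may go unseen in tumour 2, whose probes spread the most. In tumour 1 it held 1812 probes at a mean of 0.21 and ended 0.3 Mb past that line, at a single probe reading 1.25. The next segment, also at 0.21, ran to the chromosome's end. In tumour 2 the first segment ran 33.8 Mb past the line at 0.24, before a step to 0.36. In tumours 3 and 4 it ran 42.8 and 10.2 Mb past it, at 0.14 and 0.25. The whole region was called gained (a mean of 0.2 or more over at least 5 probes) in tumours 1, 2 and 4, and none of it in tumour 3, whose segment lay below 0.2. With 0.1 as the limit all 4 tumours were called over the whole region, and with 0.3 none was.

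The region was set against the rest of its own chromosome, a comparison in which the centring of the array cancels. The rest of chromosome 15 averaged 0.21, 0.30, 0.14 and 0.23 in tumours 1 to 4. Region minus rest was -0.0059, -0.06, -0.0024 and 0.03. Tumours 1 and 3 thus showed nearly equal levels on both sides, while tumour 2 was lower and tumour 4 higher in the region. The mean difference was -0.0098 ± 0.04 (SD, n = 4; exact two-sided sign-flip p = 0.625), less than the spread between tumours. Without tumour 2 it turned to 0.0063, and in tumours 2 and 3 alone it was -0.03. In tumour 2 the difference was -0.04 after a trend on probe G and C content was removed.

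**Figure D2:**
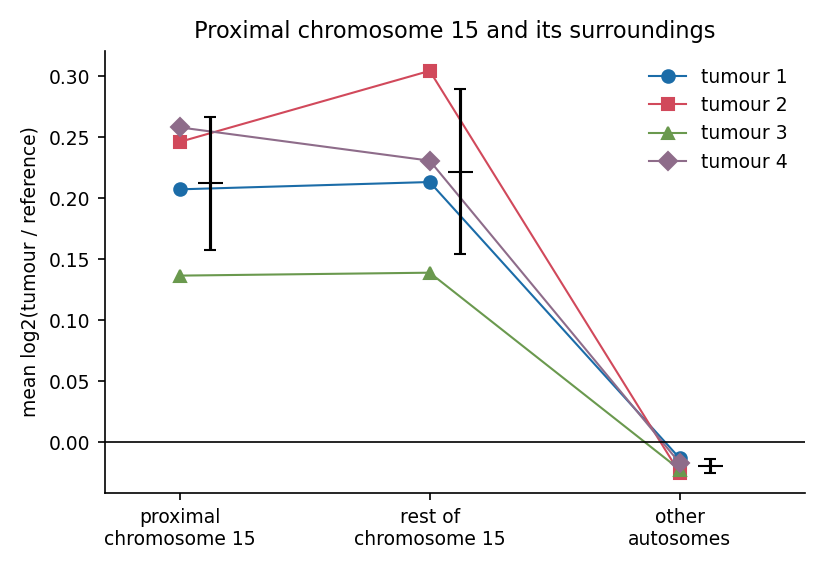
Mean log2 ratio of tumour over reference (vertical axis) for the proximal region of chromosome 15, the rest of that chromosome and the other autosomes, 1 point per tumour joined by lines, with the mean and SD of the 4 tumours in black. Both parts of chromosome 15 lie above 0 in each tumour, and the region's 4 values run from 0.14 to 0.26.

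The same contrast was taken on all 19 autosomes, as the first 33 Mb minus the rest. None was apart from 0 (limma over 19 autosomes, Benjamini-Hochberg), against 0.0% called; 0 of 19 had an unadjusted p under 0.05. Chromosome 15 had a mean of -0.0098 with a standard error of 0.01 (adjusted p = 0.835), and 8 of the other 18 autosomes had a larger difference in size. Those ran from -0.02 to 0.02. By bins, 0 of the 10 proximal bins stood apart from the rest of chromosome 15 (limma, adjusted p = 0.776 to 0.974), against 0.124% of autosomal bins. None of the 10 had an unadjusted p under 0.05. Bin minus chromosome ran from -0.03 to 0.02.

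Base composition moved with the values in tumour 2. The region's 182 positions with under 35% G and C averaged 0.06 there, and its 470 positions with 38% or more averaged 0.32. On the other autosomes the same bands averaged -0.23 and 0.09 in tumour 2. Region minus other autosomes was 0.29 in the low band, 0.28 in the middle band and 0.23 in the high band of tumour 2. In tumours 1, 3 and 4 the region's low and high bands differed by 0.0033, 0.03 and 0.03. The region lay above the other autosomes in all 3 bands of all 4 tumours, by 0.15 or more in each. The part of base composition in the differences between bins was not tested further.

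**Figure D3:**
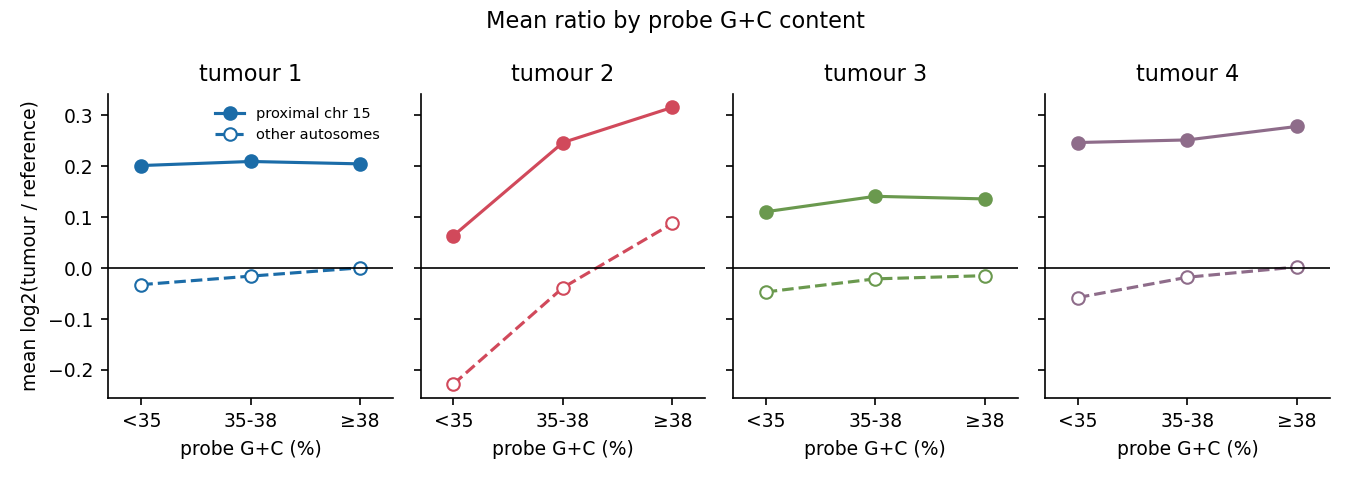
Mean log2 ratio (vertical axis) in 3 bands of probe G and C content (horizontal axis, percent), 1 panel per tumour, with filled points for the proximal region of chromosome 15 and open points for the other autosomes. In tumour 2 both lines climb with G and C content, and in every panel the filled line lies above the open one.

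The genes of the region showed a shift of the same size. It held 124 genes with all probes on 1 chromosome, and the median of their means over tumours was 0.22, against 0.23 for the 720 genes in the rest of chromosome 15 and -0.004 for all 21341 autosomal genes. Of the 124, 103 were above 0 in all 4 tumours, or 83.1%, against 15.3% of autosomal genes and 77.6% of genes in the rest of the chromosome. Below 0 were 1, 17, 8 and 0 genes in tumours 1 to 4, most of them in the array with the widest probe spread. Genes with 1 probe had means that spread with an SD of 0.11, and genes with 10 or more probes with an SD of 0.04.

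No single gene passed the test over all genes, which with 4 arrays does not show a ratio of 0. Of the 95 genes with at least 2 probes, 0 were called higher (limma across 13919 genes, lowest adjusted p = 0.133), against 0.0% of all genes. At an unadjusted p under 0.05, 84 of the 95 were higher, or 88.4%, against 6.67% of all genes and 82.7% of the 440 in the rest of chromosome 15. With normexp on the raw signal, which also leaves out the spatial and dye steps, 37 of the 95 were called, of 180 called higher in all. With the slide as a random block 43 were called, of 169. That fit took a correlation within slides of -0.31, and a negative value narrows the standard error of a mean. The region's genes thus sat with those of the rest of the chromosome, and below they are described by role, each with its level and no call.

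**Figure D4:**
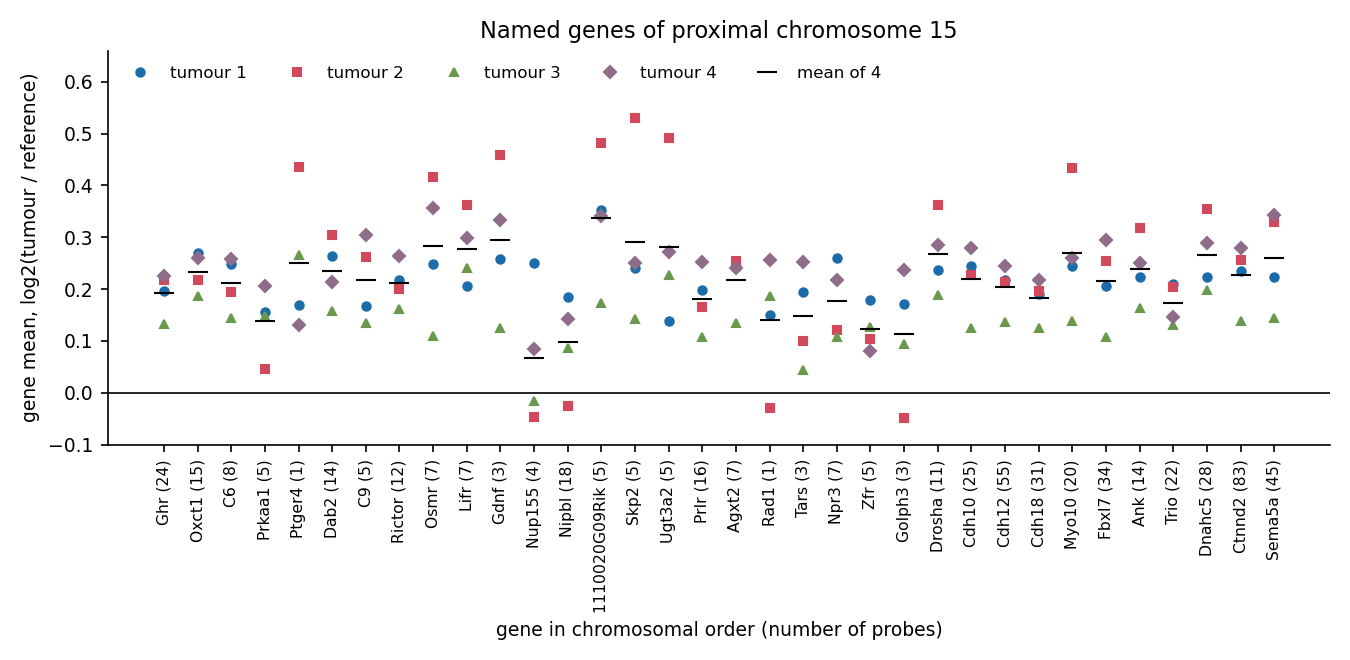
Gene means of the log2 ratio of tumour over reference (vertical axis) for 34 genes of the proximal region in chromosomal order (number of probes in brackets), 1 symbol per tumour and a bar for the mean of 4. Most symbols lie above 0, and the points below it belong to tumour 2 except for 1 of tumour 3, at Nup155.

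The class I cytokine receptors come first, proteins that pass hormone and cytokine signals to JAK kinases and STAT factors. Ghr, the growth hormone receptor (24 probes, 3275928 to 3529856), read 0.20, 0.22, 0.13 and 0.22 in tumours 1 to 4. Prlr, the prolactin receptor (16 probes, 10111641 to 10252214), read 0.20, 0.17, 0.11 and 0.25. In both, tumour 3 was lowest and tumour 4 highest, as in the region as a whole. Osmr, the subunit that binds oncostatin M (7 probes), read 0.25, 0.42, 0.11 and 0.36. Lifr, the receptor of leukaemia inhibitory factor (7 probes), read 0.21, 0.36, 0.24 and 0.30. In both of these neighbours tumours 2 and 4 were the highest pair, and with normexp the Osmr mean moved from 0.28 to 0.43. Il7r, the interleukin 7 receptor, had 0.22, 0.40, 0.25 and 0.20. All 5 receptors were above 0 in all 4 tumours, against 83.1% of the region's 124 genes. Their median mean was 0.27, against 0.22 for those 124. The other 21 autosomal genes listed for this pathway (ligands, other receptors, JAK and STAT genes) lay on other chromosomes. Their median was 0.0054, and 3 of the 21 were above 0 in all 4 tumours. The gene test passed 0 of 5 in the region and 0 of 15 elsewhere, so it does not set the 2 apart.

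Other hormone and growth factor genes followed. Gdnf, which encodes a neurotrophic ligand (3 probes), read 0.26, 0.46, 0.12 and 0.33. Dab2, an endocytic adaptor (14 probes, 6249865 to 6389561), read 0.26, 0.31, 0.16 and 0.21. Npr3, the clearance receptor for natriuretic peptides (7 probes), read 0.26, 0.12, 0.11 and 0.22. Tumour 3 was lowest in all 3 genes, while tumour 2 was highest in Gdnf and Dab2 but not in Npr3. Ptger4, a receptor for prostaglandin E2, rests on the lone probe printed above, at 0.17, 0.44, 0.27 and 0.13, a mean of 0.25 that was 0.42 with normexp. The median of the 4 genes was 0.24. The 6 genes of that list elsewhere had a median of 0.05. The gene test passed 0 of 3 in the region and 0 of 6 elsewhere.

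Skp2 and its neighbours in cell-cycle control varied more, and its 5 printed probes show how. Skp2 (9043131 to 9069198) read 0.24, 0.53, 0.14 and 0.25, a mean of 0.29 ± 0.17 (SD, n = 4; limma adjusted p = 0.16 over all genes). Tumour 2 was highest and the other 3 were close to the region's own level. In tumour 2, Skp2 probes 1 and 2 read 0.93 each, and probe 3, the richest in G and C, read -0.01. Probes 4 and 5 read 0.26 and 0.54 there. In tumour 1 the 5 probes ran from 0.04 to 0.33. Removing the trend on G and C content from the array brought Skp2 in tumour 2 to 0.38, and removing the trend on signal intensity brought it to 0.31.

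Fbxl7, an F-box protein like Skp2 (34 probes, 26477479 to 26815570), read 0.21, 0.25, 0.11 and 0.29. Nipbl, which loads cohesin onto chromosomes (18 probes, 8243179 to 8392933), read 0.18, -0.02, 0.09 and 0.14. Its mean of 0.10 ± 0.09 (SD, n = 4) was the lowest among the 58 genes with at least 5 probes, with tumour 2 below 0. Rad1, part of a clamp that senses DNA damage, rests on its printed probe, at 0.15, -0.03, 0.19 and 0.26. The highest of the 58 was 1110020G09Rik (5 probes), at 0.35, 0.48, 0.17 and 0.34, which lies beside Skp2. Of the 4 members of the Skp2 list in the region, 2 were above 0 in all 4 tumours, against 83.1% of the region's genes. The 9 listed genes elsewhere, 1 of them in the rest of chromosome 15, had a median of -0.04. Of these 9, 1 was above 0 in all 4 tumours. The gene test passed 0 of 3 in the region and 0 of 7 elsewhere.

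Growth-control genes of the mTOR and AMPK pathways lay here too. Rictor, the defining subunit of mTOR complex 2 (12 probes, 6663941 to 6748147; named 4921505C17Rik on the array), read 0.22, 0.20, 0.16 and 0.26. Prkaa1, a catalytic subunit of AMPK (5 probes), read 0.16, 0.05, 0.15 and 0.21. Golph3, a Golgi protein (3 probes), read 0.17, -0.05, 0.09 and 0.24. Tumour 2 was the lowest in the last 2, and its values there moved with the processing. With the intensity trend removed it read 0.24 in Prkaa1 and 0.12 in Golph3, and with normexp -0.22 and -0.13. Taking medians over probes in place of means gave 0.42 for Prkaa1 in tumour 2 and raised that gene's mean over tumours from 0.14 to 0.25. The median of the 3 was 0.14, and that of the 7 listed genes elsewhere, 1 of them also on chromosome 15, was 0.02. The gene test passed 0 of 3 in the region and 0 of 7 elsewhere.

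The delta-catenin and cadherin genes include some of the longest of the region, with the most probes. Ctnnd2 (83 probes, 30116606 to 30951348) read 0.24, 0.26, 0.14 and 0.28, a mean of 0.23 ± 0.06 (SD, n = 4; limma adjusted p = 0.133). Its probes spread with an SD of 0.12, 0.42, 0.13 and 0.16. Below 0 were 3, 21, 9 and 3 of the 83 in tumours 1 to 4. The 2 printed Ctnnd2 probes mark the extremes: the highest read 0.38, 1.03, 0.27 and 0.48, and the lowest 0.12, -0.56, -0.19 and -0.19. Along the gene the level was even. The first, middle and last 28, 28 and 27 probes averaged 0.24, 0.21 and 0.23 over the tumours.

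**Figure D5:**
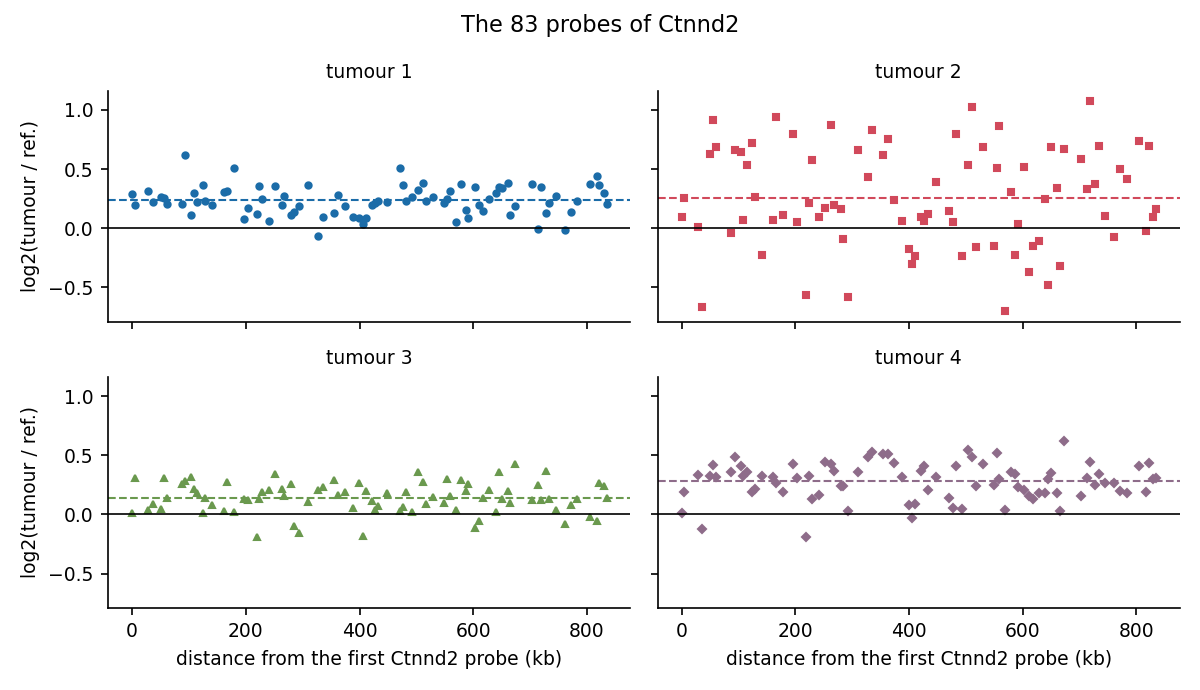
Log2 ratio of tumour over reference (vertical axis) at each of the 83 Ctnnd2 probes by distance from the first of them (horizontal axis, kb), 1 panel per tumour, with the tumour's mean as a dashed line. The points scatter evenly about a level above 0 along the whole gene, most widely in tumour 2, where the SD over probes was 0.42.

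Cdh12 (55 probes, 21046488 to 21518355), a cadherin of neurons, read 0.22, 0.21, 0.14 and 0.24. Cdh18 (31 probes), another neuronal cadherin, read 0.19, 0.20, 0.12 and 0.22. Cdh10 (25 probes) read 0.25, 0.23, 0.13 and 0.28. In these 3 cell adhesion genes tumour 3 was lowest and tumour 4 highest, as in the region's mean. Tumour 1 read above tumour 2 in Cdh12 and Cdh10, unlike in the region's mean. All 6 members of the list in the region, Cdh6 and Cdh9 included, were above 0 in all 4 tumours, against 83.1% of the region's genes. Their means ran from 0.18 to 0.28. The 9 members elsewhere had a median of 0.007, and 2 of them were above 0 in all 4 tumours. The gene test passed 0 of 6 in the region and 0 of 9 elsewhere.

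Most of the region's genes listed under axon guidance and the cytoskeleton lay in its distal part. Sema5a, a semaphorin (45 probes, 32184261 to 32625886), read 0.22, 0.33, 0.14 and 0.34. Myo10, a myosin of filopodia (20 probes), read 0.25, 0.43, 0.14 and 0.26. Dnahc5, a dynein of cilia (28 probes), read 0.22, 0.36, 0.20 and 0.29. In these 3, tumours 2 and 4 stood above tumours 1 and 3. Trio, a signalling protein of axon growth (22 probes), read 0.21, 0.20, 0.13 and 0.15, and there tumour 4 was close to tumour 3. All 6 matched members in the region, with a median of 0.25, were above 0 in all 4 tumours, against 83.1% of the region's genes. The 2 members elsewhere had a median of 0.05, and 1 of them was above 0 in all 4 tumours. The gene test passed 0 of 6 in the region and 0 of 2 elsewhere.

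Complement and metabolic genes were next. The components C6 (8 probes) and C9 (5 probes), which form the membrane attack complex, had means of 0.21 and 0.22. C6 read 0.25, 0.19, 0.14 and 0.26 and C9 read 0.17, 0.26, 0.13 and 0.30. The 4 other matched complement genes, elsewhere, had a median of 0.03. The gene test passed 0 of 2 in the region and 0 of 4 elsewhere. Oxct1, an enzyme with which tissues burn ketone bodies (15 probes, 3983258 to 4092821), read 0.27, 0.22, 0.19 and 0.26. Ank, a transporter involved in pyrophosphate export (14 probes), read 0.22, 0.32, 0.16 and 0.25. Agxt2, a mitochondrial aminotransferase (7 probes), read 0.24, 0.25, 0.13 and 0.24, with tumour 3 apart from the other 3. Ugt3a2, a glycosyltransferase (5 probes), read 0.14, 0.49, 0.23 and 0.27. Of the 8 metabolic genes in the region 7 were above 0 in all 4 tumours, against 83.1% of all its genes. The median of the 8 was 0.23. The 5 elsewhere had a median of 0.02, and 1 of them was above 0 in all 4 tumours. The gene test passed 0 of 8 in the region and 0 of 5 elsewhere.

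Among the listed genes of the region, those of RNA processing and translation held the lowest and the highest mean. Drosha, the nuclease that starts microRNA maturation (11 probes, 12766716 to 12861347; Rnasen on the array), read 0.24, 0.36, 0.19 and 0.29. Nup155, a nuclear pore protein (4 probes), read 0.25, -0.05, -0.02 and 0.08, a mean of 0.07 that was 0.007 without tumour 1. Cct5, a subunit of the chaperonin that folds actin and tubulin, rests on its printed probe, at 0.19, 0.97, 0.15 and 0.34. Single positions of the region spread with an SD of 0.37 on the array of tumour 2. Zfr, an RNA-binding zinc finger protein (5 probes), read 0.18, 0.10, 0.13 and 0.08, and Tars, a threonyl-tRNA synthetase (3 probes), read 0.20, 0.10, 0.04 and 0.25. Of the 6 in the region 5 were above 0 in all 4 tumours, against 83.1% of all its genes. The median of the 6 was 0.19. The 3 elsewhere had a median of -0.11, and 0 of them were above 0 in all 4 tumours. The gene test passed 0 of 5 in the region and 0 of 3 elsewhere.

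Over all 9 lists, 44 members lay in the region and 39 of them were above 0 in all 4 tumours. That is set against 83.1% of the region's 124 genes, 77.6% of genes in the rest of chromosome 15 and 15.3% of all autosomal genes. The 66 matched autosomal members elsewhere, 2 of them in the rest of chromosome 15, included 13 such genes. No member passed after adjustment, either of the 41 tested in the region or of the 58 elsewhere. Whether a probe lies in an exon, an intron or a UTR is not given, since no mm9 annotation was used here.

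Positions with large ratios were few. At 1 or more in size, the region had 0 positions in tumours 1 and 3, and 1.63% and 0.0562% of positions in tumours 2 and 4. Values of -0.5 or lower occurred at 0, 57, 3 and 1 positions in tumours 1 to 4. In tumours 1, 3 and 4 at most 3 of 1780 positions were that low, and no run of them formed a segment.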

How the data were processed

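Scanner files of 4 two-colour arrays (mm9) came from Agilent Feature Extraction 12.0.1.1, per the file headers (version 12.0.0, per the submitters' processing notes). The deposited intensity used here is the processed signal, from which, per the file headers, background was subtracted, spatial trends were removed and dyes were balanced linearly. The log10 ratio deposited per spot served only to check direction.

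From these, log2 of red over green was taken per spot, spots flagged non-uniform or population outlier were dropped, replicate spots were averaged, and arrays were centred on the autosomal median, with no loess. Bins of 3 Mb with at least 20 positions, genes with at least 2 probes and chromosome contrasts were tested with limma 3.58.1 in R 4.3.3 (intercept, eBayes, Benjamini-Hochberg over all features), and single values with exact sign-flip permutation tests. These leave out the reference's own spread. Segments came from penalised least squares (penalty factor 3), in Python 3.11.15 with numpy 2.4.6. The code was tested on simulated data. The number of arrays limits the precision.

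The members and the 9 lists were chosen with earlier results of these data known. Of 124 list entries, 112 were found on the array, 4 of them under older names through RefSeq synonyms (GRCm38.p6). Named genes are Skp2, Ctnnd2, up to 4 members per list with the most probes, and the highest and lowest gene with at least 5 probes; Il7r, Cct5, Cdh6 and Cdh9 were named after their values were seen. Arrays 1 and 2 shared a slide, as did 3 and 4. Alternatives covered centring, background (normexp, offset 50), flags, dim spots, intensity and G and C trends, medians and signs. They also covered tumours left out, borders, bin sizes, limits, penalties and slides. Normexp started from the raw mean signals, so the removal of spatial trends and the linear dye balancing were left out.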

Additional observations from a re-analysis of the deposited data

Results flagged for a closer look

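Of 46 results (the region's mean, its difference from the rest of the chromosome, its 10 bins and 34 genes), 1 had a tumour far from the other 3. Agxt2 read 0.13 in tumour 3, against 0.24 to 0.25 in the other 3 tumours. The gap took up 88.6% of the range, past Dixon's critical value for 4 samples, a mark that chance gives to about 1 group in 20. Tumour 3 was also the lowest of the 4 in the region as a whole.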

How the results depend on the processing

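The region's mean ran from 0.19 to 0.27 (normexp) under 15 of 17 alternatives. With the sign of tumour 1 or 4 turned it was 0.11 and 0.08, means that 3 unturned tumours hold above 0 while the turned one lies below it. With a tumour left out, region minus rest, also as fitted over the autosomes, ran from -0.022 without tumour 4 to 0.0063 without tumour 2, a change of sign in a value near 0. It lay further from 0 in tumours 2 and 3 alone (-0.0303) and with the sign of tumour 4 turned (-0.0235). The 10 bins were called in full except when the sign of tumour 1 or of tumour 4 was turned, each giving 0. With 1 Mb bins 30 of 30 were called and with 6 Mb bins 5 of 5, where only the totals follow from the bin width. For these alternatives the share of all autosomal bins called, or at or above 0.2, is not given. In the main fit all 34 bins of chromosome 15 were called, so such counts are not particular to the region. No bin stood apart from the chromosome under any alternative run. Genes called were 37 with normexp and 43 with the slide block, and 0 of the 58 with at least 5 probes. The correlation within slides was -0.31 in the slide block fit, and the cause of these calls was not tested. Bin values at or above 0.2 numbered 15 with the sign of tumour 4 turned, 9 of 20 for tumours 2 and 3 alone (an alternative chosen after seeing the data), 71 of 120 in 1 Mb bins and 14 of 20 in 6 Mb bins. They numbered 40 at a limit of 0.1 and 1 at 0.3, and 15 to 25 of 30 with a tumour left out. The mean share of the region called gained, 75%, was 0 at a limit of 0.3. Among genes, Golph3 turned to -0.0051 with the sign of tumour 4 turned, and Nup155 to -0.057 with that of tumour 1 turned and to -0.032 in tumours 2 and 3 alone; it was 0.007 without tumour 1. Past 1.5 times moved Osmr (0.43), Ptger4 (0.42), Rad1 (0.22) and Golph3 (0.07) with normexp, Golph3 (0.17) without the intensity trend, Prkaa1 (0.25) and Zfr (0.19) with probe medians, Golph3 (0.07) without tumour 4 and Nup155 (0.11) without tumour 2. So did 6 of 34 genes in tumours 2 and 3 alone, and 33 and 32 with the sign of tumour 1 or 4 turned, Rad1 (0.01) among them. No paired analysis was possible because all tumours form 1 group. Tumour 2's probe spread limits single genes there.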
